A study of Mus musculus with 18 samples.

Results

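After 3 days in differentiation medium, C2C12 cells carrying the spliced form of the long noncoding RNA MUNC were compared directly with C2C12 cells carrying its genomic, unspliced form. The comparison took 6 of the study's 18 RNA-seq libraries, 3 labelled MUNC spliced and 3 labelled MUNC genomic, and subtracted the second group from the first on the log2(FPM + 1) scale. FPM is the deposited signal, a fragment count scaled for library size. Of 35275 listed genes, 13869 reached 0.5 FPM in at least 3 of the 18 libraries and were tested.

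C2C12 is an established line of mouse myoblasts that leaves the cell cycle and fuses into myotubes when serum is reduced. All groups came from a stock that the labels call PAX7 NEG, kept in high-glucose medium with fetal bovine serum. DM3 libraries came from cells held for 3 days in medium with little horse serum, and GM libraries from subconfluent cells in growth medium. The MUNC spliced and MUNC genomic groups overexpressed the named form, and the control group is labelled wild type. The labels state 3 biological replicates a group. They do not state the vector, or whether each line is 1 clone or a pool, so the form of MUNC and the history of a line cannot be told apart. A tissue label that calls samples myoblasts or myotubes contradicts the titles in 9 samples and was not used. MUNC's own level was not analysed here, so its overexpression was not checked.

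MUNC is transcribed upstream of Myod1, the gene of the transcription factor that commits cells to muscle, and is known as an enhancer RNA of that locus that also acts at other promyogenic genes. MyoD and its relatives bind E-box motifs and switch on myogenin, the fusion proteins and then the sarcomere. The type I interferon response is a separate antiviral programme: sensors of foreign nucleic acid lead to secreted interferon, whose receptor signals to genes with an interferon-stimulated response element (ISRE).

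Between the MUNC spliced and MUNC genomic libraries in DM3, 6135 of the 13869 tested genes were called at an adjusted p under 0.05, which is 44.2%. The spliced group was higher in 3247 (23.4%) and lower in 2888 (20.8%). The 3 libraries of one group all lay above or all below those of the other for 57.2% of the tested genes, higher in MUNC spliced for 29.9% and lower for 27.3%. A call or a gap between the groups is therefore common among genes at large, and the sizes below carry more than the counts. With an absolute log2 difference of at least 1 as a further criterion, 1830 genes were left (13.2%), 1043 higher and 787 lower in MUNC spliced. The difference reached 3 or more in 160 called genes and -3 or less in 87.

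Recovered depth was 50964504 to 63964247 reads in these 6 libraries. The MUNC genomic libraries correlated with each other at r of 0.994 to 0.996, and MUNC spliced replicates 2 and 3 at 0.993. MUNC spliced replicate 1 stood apart, at r of 0.984 and 0.980 with its partners. In 421 genes it lay at least 1 log2 unit from the mean of the other 2 replicates, and outside them by more than the distance between the groups. The same count was 2 to 42 for each of the other 5 libraries. Results that changed without it are given both ways.

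Marker lists of 4 other cell types were checked. Fibroblast markers were abundant, with summed levels of 15612, 16526 and 16707 FPM in MUNC spliced and 12690, 11002 and 11946 FPM in MUNC genomic. Of 10 tested fibroblast markers 3 were higher and 4 lower, a share called of 70% beside 44.2% of all genes. Their part in the results below was not tested. The summed levels of the other 3 lists were at most 35.6 FPM. Of 10 endothelial markers 2 were tested, and the summed level of the list was 1.29 to 1.81 FPM in MUNC spliced and 4.20 to 5.78 FPM in MUNC genomic. Of 11 macrophage and leukocyte markers 3 were tested, with sums of 10.7 to 14.1 FPM and 15.8 to 17.5 FPM. Of 10 epithelial markers 3 were tested, with sums of 9.37 to 35.6 FPM and 12.9 to 21.8 FPM. Epcam, a defining epithelial gene, had no read in any of the 6 libraries, and Ptprc, the common leukocyte antigen, was at 0.117 FPM or less. Single markers still differed between the lines, in both directions. Of the 2 tested endothelial markers 1 was higher and 1 lower in MUNC spliced (log2 differences 0.90 and -2.36). Of the 3 tested epithelial markers 1 was higher (3.08) and 2 were lower. Cdh5, a cadherin of endothelium, stood at 0.0190, 0 and 0 FPM in MUNC spliced and 4.99, 3.83 and 3.79 FPM in MUNC genomic. Krt8, a simple epithelial keratin, stood at 0, 0.0174 and 0.0362 FPM against 13.4, 9.02 and 11.9 FPM. Ly6a, a surface antigen of mesenchymal cells that interferon also induces, stood at 1010, 1403 and 1251 FPM against 37.6, 32.8 and 28.4 FPM. The myogenic markers Myod1, Myf5 and Des were present in both lines. In bulk RNA, fewer cells of a type and less RNA per cell cannot be told apart.

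**Figure D1:**
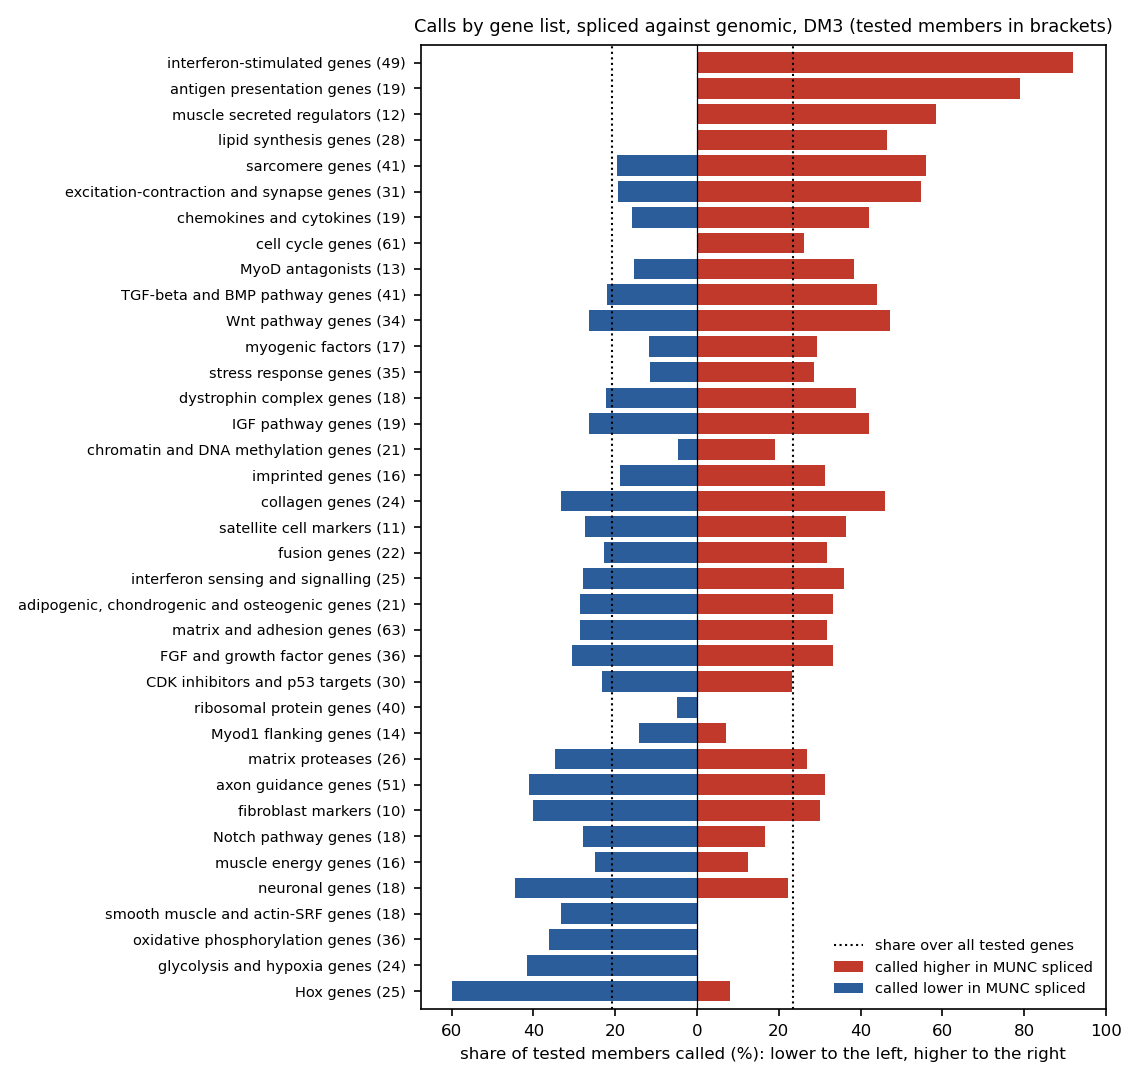
Share of the tested members of each gene list called higher (red, to the right) or lower (blue, to the left) in MUNC spliced than in MUNC genomic cells in DM3, for lists with at least 10 tested members. The dotted lines mark the shares over all tested genes, 23.4% higher and 20.8% lower. The interferon-stimulated genes lie farthest to the right and the Hox genes farthest to the left.

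The largest coordinated difference lay in the interferon response. Of 49 tested interferon-stimulated genes, 45 were higher in MUNC spliced and none was lower (91.8% called beside 44.2% of all genes). Their median log2 difference was 3.95 beside 0.03 over all tested genes. All 9 oligoadenylate synthetase and RNase L genes, all 12 interferon-induced GTPases and 24 of 28 Ifit and Ifi effectors were called. The 4 members not called were Samd9l, Ifitm1, Ifitm2 and Ifi27. The summed level of the list was 6459, 10473 and 8856 FPM in MUNC spliced and 1115, 1064 and 1124 FPM in MUNC genomic. In control DM3 cells it was 17505, 13790 and 11087 FPM, so control and MUNC spliced cells were both high and the MUNC genomic libraries were the low ones.

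Many but not all promoters of these genes held letters matching the element through which interferon signalling acts. The ISRE was searched as TTTC and TTTC with any pair of bases between them, on both strands in the 250 bases before the gene start, in RefSeq promoters of GRCm38.p6. It was found in 20 of 35 interferon-stimulated promoters in that table (57.1%) and in 326 of 10244 promoters of tested genes (3.18%). None of 31 sarcomere promoters held it. A match is a description of letters and not a tested site. The 80-base stretches below come from genes among the largest differences, 5′ to 3′ on the gene's strand, with each copy of the motif in capitals.

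Ifit3 (chr19:34583343-34583422, plus strand): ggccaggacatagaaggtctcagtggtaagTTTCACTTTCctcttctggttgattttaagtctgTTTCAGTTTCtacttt
Ifit1 (chr19:34640755-34640834, plus strand): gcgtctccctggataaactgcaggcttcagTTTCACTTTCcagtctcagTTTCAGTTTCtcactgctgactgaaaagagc
Gbp7 (chr3:142530253-142530332, plus strand): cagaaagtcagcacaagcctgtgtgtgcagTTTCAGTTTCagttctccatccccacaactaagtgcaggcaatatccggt
Oas1a (chr5:120907526-120907605, minus strand): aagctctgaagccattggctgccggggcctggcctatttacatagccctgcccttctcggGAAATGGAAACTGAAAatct

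Ifit3 and Ifit1 each hold 2 separate copies. The tandem copy Ifit3b carries the same 80 bases as Ifit3. In Oas1a the motif lies on the opposite strand and its 2 copies overlap. All 5 of these genes were far higher in MUNC spliced, and being called higher was a condition of the choice. Ifit1 encodes a protein that binds foreign RNA and blocks its translation, and Ifit3 belongs to the same family. Ifit3 stood at 295, 716 and 555 FPM in MUNC spliced and 2.31, 3.13 and 3.10 FPM in MUNC genomic, a log2 difference of 7.001 (SE 0.76, adjusted p = 1.38e-06). Ifit1 stood at 368, 650 and 567 FPM against 5.10, 3.01 and 5.78 FPM, and Ifit3b at 72.4, 181 and 135 FPM against 0.297, 0.467 and 0.605 FPM. Reads of Ifit3 and Ifit3b could have been split between these near-identical copies, as could those within the Oas, Gbp and Tgtp families. Gbp7, a guanylate-binding GTPase, stood at 91.6, 183 and 179 FPM against 0.970, 1.60 and 0.859 FPM. Oas1a, which makes the second messenger that activates RNase L, stood at 50.2, 82.3 and 57.5 FPM against 0, 0.0602 and 0.137 FPM.

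The largest differences of the list were in Oas2, Ifi44, Iigp1 and Ifit3. Oas2 (chr5:120730333-120749853) stood at 238, 307 and 388 FPM in MUNC spliced, 0.0989, 0.422 and 0.527 FPM in MUNC genomic and 463, 361 and 309 FPM in control. Its log2 difference between the forms was 7.84 (SE 0.51, adjusted p = 2.58e-09). Ifi44 stood at 331, 506 and 454 FPM against 1.29, 1.42 and 1.64 FPM, and Iigp1, an immunity-related GTPase, at 244, 420 and 270 FPM against 0.712, 1.49 and 0.917 FPM. In each of these genes every MUNC spliced library lay far above every MUNC genomic library. Isg15, a ubiquitin-like modifier, stood at 255, 359 and 286 FPM against 7.10, 6.01 and 8.04 FPM. Mx1, a dynamin-like GTPase active against influenza, had no read in the 3 MUNC genomic libraries and 7.02, 25.2 and 15.6 FPM in MUNC spliced. Against a floor of 3 reads per library this is at least 293-fold higher. Samd9l was already high in MUNC genomic, at 125, 124 and 111 FPM against 195, 239 and 203 FPM, and missed the threshold (log2 difference 0.81, adjusted p = 0.068), though it was called with only the compared libraries in the fit (0.000749). Ifi27 stood at 86.3, 73.8 and 71.8 FPM against 104, 96.8 and 104 FPM and was not called either, except with only the compared libraries (adjusted p = 0.0133).

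**Figure D2:**
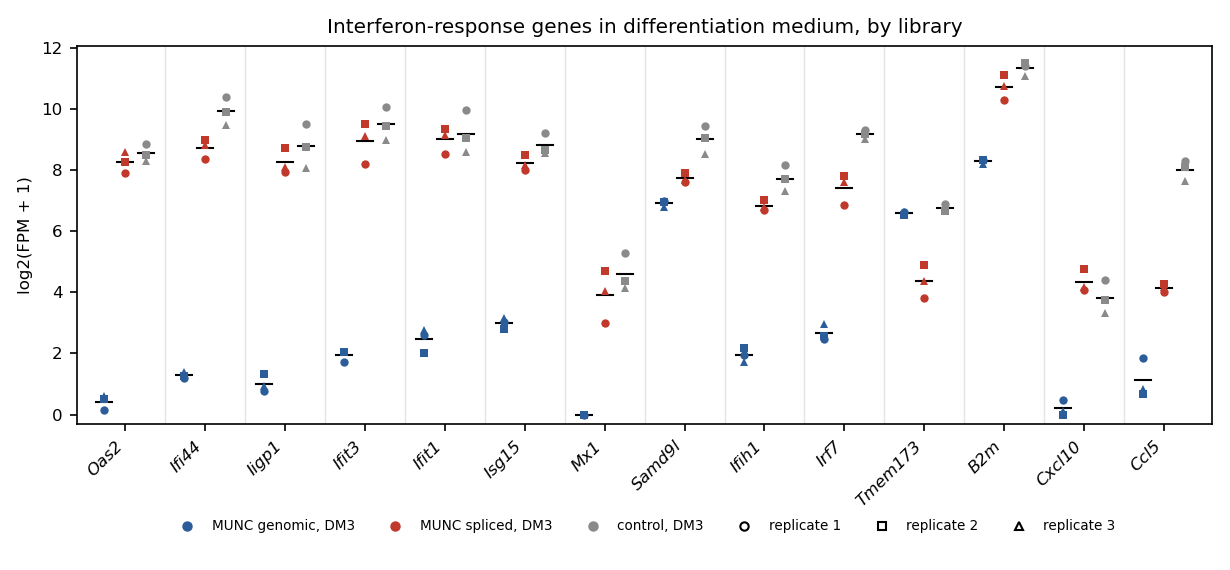
Level of 14 interferon-response genes as log2(FPM + 1) in each DM3 library. Colours mark the groups, symbols the replicates and bars the group means. The MUNC genomic points lie below the MUNC spliced and control points for every gene shown except Tmem173, where the MUNC spliced points are lowest.

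The machinery before and after interferon was mixed. Of 25 tested sensing and signalling genes, 9 were higher and 7 lower in MUNC spliced (64% called beside 44.2% of all genes). Their median log2 difference was 0.09. The median was 0.18 without MUNC spliced replicate 1 and 0.03 without replicate 2. Those higher included the double-stranded RNA sensors Ifih1 and Tlr3 and the signalling factor Irf7. Ifih1 stood at 102, 129 and 109 FPM against 2.85, 3.49 and 2.30 FPM (log2 difference 4.88, SE 0.37, adjusted p = 2.00e-08). Irf7, the factor that amplifies interferon transcription, stood at 115, 222 and 193 FPM against 4.55, 4.91 and 6.79 FPM. Tmem173, which encodes the DNA-sensing adaptor STING, went the other way, at 12.97, 28.6 and 19.9 FPM against 97.5, 92.1 and 97.0 FPM. Control cells resembled MUNC genomic in this gene, with 117, 99.5 and 107 FPM. Jak1, a receptor kinase, was not called, at 271, 299 and 326 FPM against 280, 261 and 266 FPM. The interferon gene Ifnb1 was below the filter, with 0.133, 0.157 and 0.181 FPM in MUNC spliced, no read in MUNC genomic and 0.173, 0.0986 and 0.184 FPM in control.

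Antigen presentation followed the same direction. Of 19 tested genes of the MHC class I route, 15 were higher and none lower in MUNC spliced (78.9% called beside 44.2% of all genes). Their median log2 difference was 1.13. Tap1, a peptide transporter, stood at 21.9, 33.1 and 30.8 FPM against 1.31, 1.30 and 1.40 FPM. B2m, the invariant light chain, stood at 1236, 2187 and 1714 FPM against 320, 323 and 291 FPM. The immunoproteasome subunit Psmb8 stood at 5.202, 11.8 and 6.27 FPM against 0.218, 0.0602 and 0.0195 FPM. Nlrc5, a transactivator of class I genes, stood at 4.29, 9.03 and 8.59 FPM against 0.336, 0.241 and 0.527 FPM. Chemokines and cytokines were less uniform, with 8 of 19 higher and 3 lower (57.9% called beside 44.2% of all genes). Cxcl10 stood at 15.8, 26.1 and 17.1 FPM against 0.396, 0 and 0.0976 FPM. Ccl5 stood at 15.1, 18.2 and 17.0 FPM against 2.59, 0.602 and 0.781 FPM, both far under the 312, 273 and 200 FPM of control. Il6 stood at 4.40, 1.64 and 3.38 FPM against 0, 0.0301 and 0.0585 FPM. Ccl9 fell by 2.04 on the log2 scale (adjusted p = 0.0211), and this call was lost without MUNC spliced replicate 3 or without MUNC genomic replicate 1 (adjusted p = 0.0582 and 0.0688). Csf1, the most abundant member not called, stood at 434, 473 and 578 FPM against 428, 382 and 485 FPM.

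Muscle regulators differed in a graded way. Myod1 (chr7:46376474-46379099) did not differ beyond the spread, at 53.3, 16.4 and 16.0 FPM in MUNC spliced against 18.1, 22.5 and 14.5 FPM in MUNC genomic (log2 difference 0.40, SE 0.41, adjusted p = 0.451). Without MUNC spliced replicate 1 the difference was -0.15. Control DM3 libraries held 0.0768, 0 and 0.221 FPM of Myod1. Myog (chr1:134289989-134292548), the factor that drives terminal differentiation, was higher at 226, 52.6 and 41.0 FPM against 7.89, 14.7 and 6.498 FPM (log2 difference 2.98, SE 0.45, adjusted p = 5.14e-05). Every MUNC spliced library lay above every MUNC genomic one. Myf5, the other early determination factor, stood at 125, 103 and 95.5 FPM against 34.4, 33.8 and 20.0 FPM, and control cells at 95.0, 110 and 105 FPM. Vgll2, a muscle cofactor of TEAD proteins, stood at 3.74, 1.93 and 4.61 FPM against 0.336, 0.151 and 0 FPM. Over 17 tested myogenic factors 5 were higher and 2 lower, a share called of 41.2% beside 44.2% of all genes. None was lower without MUNC spliced replicate 3, MUNC genomic replicate 1 or MUNC genomic replicate 2.

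Of 13 genes whose proteins restrain MyoD 5 were higher and 2 lower, a share called of 53.8% beside 44.2% of all genes. The number lower was 0 to 2 without 1 library, and 0 without MUNC genomic replicate 1. Id2, which sequesters the E-protein partners of MyoD, stood at 37.6, 35.7 and 22.1 FPM against 3.997, 3.42 and 3.55 FPM. Snai2, a repressor that occupies E-boxes in myoblasts, stood at 183, 189 and 208 FPM against 62.9, 43.1 and 35.3 FPM.

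The motif that MyoD and myogenin bind was looked for in the promoters of contractile genes. The E-box was searched as CAGCTG, which reads the same on both strands, in the same windows. It was found in 12 of 31 sarcomere promoters (38.7%) and in 9 of 18 excitation-contraction and synapse promoters (50%). Among the promoters of tested genes 1484 of 10244 held it (14.5%), and among interferon-stimulated genes 4 of 35 (11.4%). These stretches were picked in the same way among genes called higher in MUNC spliced that hold the motif, with the E-box in capitals.

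Atp2a1 (chr7:126463079-126463158, minus strand): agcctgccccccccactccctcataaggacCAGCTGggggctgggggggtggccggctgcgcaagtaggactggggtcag
Mybph (chr1:134193339-134193418, plus strand): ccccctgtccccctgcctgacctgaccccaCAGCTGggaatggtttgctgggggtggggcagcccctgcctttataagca
Chrng (chr1:87205626-87205705, plus strand): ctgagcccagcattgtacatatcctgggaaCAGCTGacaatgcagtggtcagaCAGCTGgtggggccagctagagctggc
Acta1 (chr8:123894946-123895025, minus strand): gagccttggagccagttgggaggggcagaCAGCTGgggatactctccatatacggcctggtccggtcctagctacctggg
Klhl41 (chr2:69669963-69670042, plus strand): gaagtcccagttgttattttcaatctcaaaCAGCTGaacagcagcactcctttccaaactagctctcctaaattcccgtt

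In each of these genes MUNC spliced replicate 1 held the highest level. Atp2a1, the calcium pump of fast fibres, stood at 116, 25.3 and 36.8 FPM against 5.88, 10.05 and 7.08 FPM. Mybph, a myosin-binding protein, stood at 45.1, 13.6 and 17.5 FPM against 2.14, 5.51 and 2.40 FPM. Chrng, the fetal subunit of the acetylcholine receptor, stood at 103, 27.8 and 32.0 FPM against 9.66, 12.05 and 8.92 FPM. Control cells held 24.9, 60.4 and 66.4 FPM of Chrng and so overlapped the MUNC spliced group. Acta1, skeletal actin, stood at 250, 35.4 and 72.9 FPM against 19.3, 30.7 and 15.5 FPM. Its call (log2 difference 2.00, adjusted p = 0.0115) was lost without MUNC spliced replicate 1, where the difference was 1.24 and the adjusted p 0.0693. Klhl41, which stabilises thin filaments, stood at 21.8, 3.64 and 6.24 FPM against 1.48, 2.11 and 1.23 FPM.

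Of 41 tested sarcomere genes 23 were higher and 8 lower in MUNC spliced (75.6% called beside 44.2% of all genes), with a median of 1.08. Without MUNC spliced replicate 1 the counts were 19 higher and 11 lower and the median 0.56. Both tested myosin heavy chains were higher. Myh3 (chr11:67078300-67102291), the embryonic chain, stood at 177, 24.2 and 37.9 FPM against 7.66, 12.999 and 8.27 FPM (log2 difference 2.43, SE 0.48, adjusted p = 0.000652). Ttn, the molecular spring of the sarcomere, stood at 139, 21.7 and 31.2 FPM against 3.64, 9.34 and 5.42 FPM. In both genes MUNC spliced replicate 1 was several times its partners, and the groups did not overlap without it either. Des, the intermediate filament that links sarcomeres, had the opposite and much larger difference. It stood at 94.4, 37.3 and 44.7 FPM in MUNC spliced, 1010, 820 and 863 FPM in MUNC genomic and 64.2, 76.2 and 92.0 FPM in control (log2 difference -4.02, SE 0.34, adjusted p = 7.14e-08). Tpm2, beta-tropomyosin, was not called, at 933, 584 and 509 FPM against 910, 838 and 746 FPM, but was called lower without MUNC spliced replicate 1 (log2 difference -0.60, adjusted p = 0.00392). Summed over the 65 listed genes, which abundant tropomyosins and Des dominate, the list stood at 5549, 3449 and 3265 FPM in MUNC spliced and at 6521, 5487 and 5090 FPM in MUNC genomic. The median gene and the summed level therefore differed in direction.

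Excitation-contraction and synapse genes behaved similarly, with 17 of 31 higher and 6 lower (74.2% called beside 44.2% of all genes) and a median of 0.78. Without MUNC spliced replicate 1 the counts were 15 and 7 and the median 0.31. Trdn, which anchors the calcium release complex, stood at 538, 469 and 333 FPM against 69.0, 37.3 and 22.1 FPM. Cacng1, a subunit of the muscle calcium channel, stood at 51.7, 29.8 and 28.3 FPM against 1.64, 2.74 and 1.87 FPM. Musk, the receptor kinase that organises the synapse, was the clearest exception. It stood at 3.95, 3.05 and 3.67 FPM against 37.0, 52.2 and 54.0 FPM, with a log2 difference of -3.40 (SE 0.17, adjusted p = 9.17e-11).

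**Figure D3:**
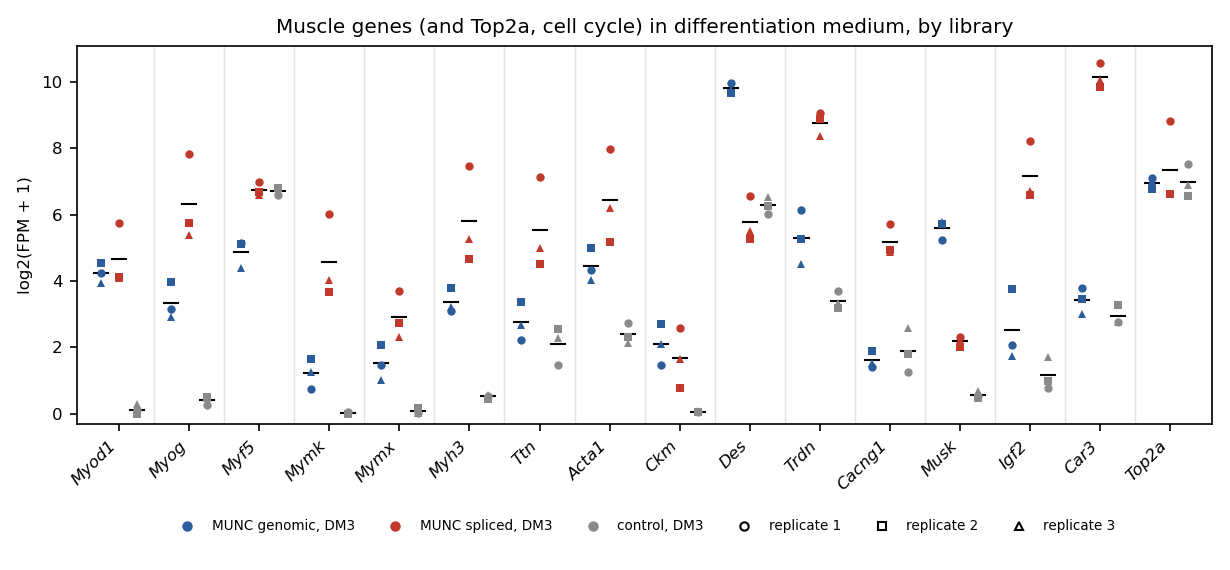
Level of 15 muscle genes and the cell cycle gene Top2a as log2(FPM + 1) in each DM3 library, with colours for groups, symbols for replicates and bars for group means. MUNC spliced replicate 1 (red circle) lies well above its partners for Myog, Mymk, Myh3, Ttn, Acta1 and Top2a. Des and Musk lie higher in MUNC genomic.

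Of 22 fusion genes 7 were higher and 5 lower, a share called of 54.5% beside 44.2% of all genes. Only 2 were lower without MUNC spliced replicate 1, MUNC spliced replicate 2, MUNC genomic replicate 1 or MUNC genomic replicate 3. Mymk, the membrane protein that starts myoblast fusion, stood at 63.7, 11.8 and 15.3 FPM against 0.693, 2.17 and 1.40 FPM. Its partner Mymx stood at 11.98, 5.65 and 3.94 FPM against 1.78, 3.19 and 1.03 FPM. Tmem182, a membrane protein known to restrain fusion, stood at 30.3, 5.02 and 7.96 FPM against 0.257, 0.346 and 0.0976 FPM. Cd9, a tetraspanin, fell by 1.45 on the log2 scale, from 506, 452 and 408 FPM in MUNC genomic to 147, 189 and 161 FPM in MUNC spliced.

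Of 16 energy genes of mature muscle 2 were higher and 4 lower, a share called of 37.5% beside 44.2% of all genes. Without MUNC spliced replicate 1, 6 were lower. Ckm, muscle creatine kinase, was low in both lines and not called, at 5.05, 0.732 and 2.15 FPM against 1.80, 5.47 and 3.30 FPM. It was called lower without MUNC spliced replicate 1 (log2 difference -0.87, adjusted p = 0.0134). Car3, a carbonic anhydrase of slow muscle and fat, stood at 1520, 926 and 1064 FPM against 12.9, 9.91 and 7.04 FPM, with 5.88, 8.66 and 5.78 FPM in control. Among 18 dystrophin complex genes 7 were higher and 4 lower, a share called of 61.1% beside 44.2% of all genes. Lama2, the laminin chain of muscle basement membrane, stood at 22.3, 7.02 and 11.7 FPM against 98.4, 112 and 141 FPM. Sgce, a sarcoglycan, stood at 3.38, 1.03 and 1.08 FPM against 38.9, 40.6 and 37.5 FPM.

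Secreted regulators of muscle were higher in MUNC spliced in 7 of 12 tested genes (58.3% beside 23.4% of all genes) and lower in none. Their median log2 difference was 0.89. Bmp4 (chr14:46383520-46390669), a growth factor that opposes myogenic differentiation, stood at 87.9, 106 and 134 FPM against 0, 0 and 0.0195 FPM, and at 2.11, 1.26 and 1.73 FPM in control (log2 difference 6.76, SE 0.25, adjusted p = 2.55e-12). Igf2, an autocrine signal for differentiation, stood at 299, 95.2 and 104 FPM against 3.21, 12.5 and 2.34 FPM. Igf1, which promotes muscle growth, stood at 42.3, 42.7 and 71.5 FPM against 3.36, 2.68 and 1.83 FPM. Fst, the antagonist of myostatin and activin, stood at 19.2, 4.15 and 3.74 FPM against 0, 0 and 0.0195 FPM. In all 4 genes the groups did not overlap. IGF-binding proteins went in both directions. Igfbp3 stood at 11.2, 7.58 and 4.74 FPM against 0, 0.0602 and 0.0390 FPM, and Igfbp2 at 0.228, 0.0871 and 0.235 FPM against 24.6, 22.4 and 9.87 FPM.

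The highest and the lowest single-gene difference of the whole comparison belonged to extracellular matrix genes. Fndc1 (chr17:7738569-7827302), a fibronectin type III domain protein, had the largest difference of all genes eligible for naming. It stood at 599, 822 and 1025 FPM in MUNC spliced, 0.0396, 0 and 0 FPM in MUNC genomic and at most 0.0197 FPM in control (log2 difference 9.62, SE 0.22, adjusted p = 4.88e-15). Loxl2 (chr14:69609068-69695834), a lysyl oxidase that crosslinks collagen, had the lowest value. It stood at 1.12, 0.697 and 0.796 FPM against 791, 767 and 826 FPM, with 5.22, 2.05 and 4.53 FPM in control (log2 difference -8.74, SE 0.33, adjusted p = 3.12e-12). Each was thus high in 1 line and far lower in the other and in control. Col4a6 (chrX:141165403-141474076), a basement membrane collagen, stood at 0.0759, 0.139 and 0.271 FPM against 80.2, 98.0 and 121 FPM.

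Over 24 tested collagen genes 11 were higher and 8 lower, a share called of 79.2% beside 44.2% of all genes. Of 10 fibrillar chains 6 were higher and 2 lower, and of 14 network and other chains 5 were higher and 6 lower. Col1a1, the main fibrillar chain, stood at 4009, 3400 and 3806 FPM against 1475, 1213 and 1475 FPM, while Col3a1 was not called, at 9095, 9677 and 9447 FPM against 9381, 8322 and 8932 FPM. Col18a1, the source of endostatin, stood at 30.1, 43.7 and 43.4 FPM against 1628, 1314 and 1482 FPM. Fbln5, an elastic-fibre protein, stood at 95.7, 60.8 and 106 FPM against 1.40, 1.34 and 1.46 FPM. Fn1, fibronectin, varied within both groups, at 5897, 11651 and 18091 FPM against 17267, 20993 and 38446 FPM, and was not called (adjusted p = 0.0692). It was called lower without MUNC spliced replicate 3 (adjusted p = 0.0307) and with a replicate block (0.00591).

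Matrix proteases also split, with 7 of 26 higher and 9 lower, a share called of 61.5% beside 44.2% of all genes. Mmp16, a membrane-type protease, stood at 35.5, 40.7 and 44.0 FPM against 0, 0.0151 and 0 FPM, and Adamts5, an aggrecanase, at 554, 656 and 659 FPM against 58.0, 72.0 and 76.3 FPM. Mmp9, gelatinase B, stood at 0.247, 0.209 and 0.416 FPM against 12.01, 7.47 and 8.49 FPM. Adamts4, the related aggrecanase, stood at 32.3, 37.3 and 23.8 FPM against 218, 160 and 210 FPM.

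Several of the other extremes were switch-like. Slc24a3, a sodium-calcium exchanger, stood at 152, 217 and 221 FPM in MUNC spliced, 0, 0 and 0.0195 FPM in MUNC genomic and 142, 151 and 125 FPM in control. Brinp3, a gene known from neurons, stood at 154, 182 and 142 FPM against 0.0989, 0.286 and 0.800 FPM, with 135, 186 and 171 FPM in control. For Slc24a3 every control library lay below every MUNC spliced library, but their difference was not called (log2 difference of MUNC spliced minus control 0.48, adjusted p = 0.0639), and for Brinp3 these groups overlapped. The reverse pattern was seen in other genes. Add2 (chr6:86028681-86124409), a membrane-skeleton adducin, stood at 0.0190, 0.0523 and 0.0542 FPM against 95.6, 99.9 and 106 FPM. Cacna1b, a neuronal calcium channel, stood at 0, 0.0349 and 0.0362 FPM against 69.4, 63.3 and 71.2 FPM. Control cells held at most 0.0368 FPM of Cacna1b. The epithelial envelope gene Sprr1a and the ligand gene Wnt7b were lower in MUNC spliced, with log2 differences of -6.56 and -6.14 (adjusted p of 2.14e-10 and 1.84e-09), and in each the groups did not overlap.

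Guidance and neuronal genes were called often and in both directions. Of 51 axon guidance genes 16 were higher and 21 lower, and of 18 neuronal genes 4 were higher and 8 lower. The shares called were 72.5% and 66.7% beside 44.2% of all genes. Slit2, a repellent ligand, stood at 151, 181 and 233 FPM against 0.831, 1.02 and 0.702 FPM. Sema3d, a secreted semaphorin, stood at 557, 722 and 354 FPM against 8.07, 16.0 and 8.86 FPM. Stmn2, a neuronal microtubule regulator, stood at 0.0190, 0 and 0.181 FPM against 52.6, 45.7 and 38.9 FPM. Nefl, the light neurofilament, stood at 0.342, 0.261 and 0.0362 FPM against 21.7, 18.3 and 14.8 FPM. Nefl was also present in control DM3 cells, at 18.1, 11.1 and 14.2 FPM.

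Among 34 Wnt pathway genes 16 were higher and 9 lower, a share called of 73.5% beside 44.2% of all genes. The receptor Fzd8 had no read in MUNC genomic or control and stood at 17.2, 16.4 and 16.9 FPM in MUNC spliced, at least 309-fold higher against 3 reads per library. Rspo3, which stabilises Wnt receptors, stood at 14.9, 14.2 and 14.4 FPM against 0.0396, 0.0602 and 0.0195 FPM. Axin2, a feedback target of Wnt signalling, had no read in MUNC genomic and stood at 6.51, 5.92 and 10.6 FPM in MUNC spliced. Sfrp2, a secreted antagonist, stood at 0.0949, 0.0349 and 0.0181 FPM against 14.7, 8.62 and 11.3 FPM. In the Notch pathway 3 of 18 were higher and 5 lower, a share called of 44.4% beside 44.2% of all genes. Without MUNC spliced replicate 3 the counts were 5 and 3, and without MUNC genomic replicate 2 they were 3 and 3. The receptor Notch1 stood at 29.6, 15.3 and 17.4 FPM against 0.989, 1.27 and 0.644 FPM, and the ligand Jag2 at 8.90, 5.58 and 4.32 FPM against 25.1, 25.8 and 30.2 FPM.

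Hox genes, which record position along the body axis, were lower in MUNC spliced in 15 of 25 tested members and higher in 2. The median was -0.55 and the share called 68% beside 44.2% of all genes. Of the 15 lower members 8 were of the Hoxa cluster on chromosome 6, where all tested genes had a median of -0.37. Hoxb6 stood at 0.304, 0.157 and 0.380 FPM against 4.87, 4.93 and 5.97 FPM, and Hoxb3 at 0.0570, 0.0349 and 0.0181 FPM against 1.72, 2.74 and 3.12 FPM. The 2 higher members were Hoxc6, at 31.1, 38.8 and 33.4 FPM against 16.0, 18.0 and 12.8 FPM, and Hoxc12, at 1.44, 1.62 and 1.049 FPM against 0.0198, 0.0602 and 0.0390 FPM.

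Of 16 imprinted genes 5 were higher and 3 lower, a share called of 50% beside 44.2% of all genes. Without MUNC spliced replicate 3 or MUNC genomic replicate 3, 3 were higher. Peg10, a paternally expressed gene on chromosome 6, stood at 1.33, 0.122 and 0.0904 FPM against 11.1, 9.81 and 12.3 FPM. H19, the noncoding RNA beside Igf2, stood at 4892, 3745 and 2640 FPM against 1680, 2152 and 1356 FPM but was not called (log2 difference 1.10, adjusted p = 0.119), except with only the compared libraries in the fit (0.0176). Among genes of other mesenchymal fates, the tendon gene Tnmd stood at 35.7, 15.4 and 15.1 FPM against 0.257, 0.0753 and 0.0195 FPM. Lpl, a lipase of fat and muscle, stood at 0.0949, 0.0349 and 0.0181 FPM against 7.95, 5.24 and 4.53 FPM.

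Smooth muscle and actin-SRF genes were lower in 6 of 18 (33.3% beside 20.8% of all genes) and higher in none, with a median of -0.44. Without MUNC genomic replicate 1 the median was -0.24. Leaving out MUNC spliced replicate 1 gave 8 lower and a median of -0.59, and without MUNC genomic replicate 3, 9 were lower and 1 higher. Actg2, smooth muscle gamma-actin, stood at 43.9, 10.1 and 10.5 FPM against 202, 125 and 112 FPM. Lmod1, an actin nucleator, stood at 3.13, 0.819 and 1.30 FPM against 31.5, 22.4 and 16.9 FPM. Acta2, the usual smooth muscle actin, was abundant and not called, at 3036, 1830 and 1875 FPM against 3443, 2156 and 2224 FPM.

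The cell cycle counts depended on single libraries. Of 61 cell cycle genes 16 were higher in MUNC spliced (26.2% beside 23.4% of all genes) and none lower (beside 20.8% of all genes). The median was 0.56, and 14 of the 16 belonged to DNA replication. Without MUNC spliced replicate 1, 2 were higher and 5 lower and the median was 0.03. In contrast 28 were higher without MUNC spliced replicate 3, and without MUNC genomic replicates 1 and 2 in turn 10 and 8 were higher. The summed level of the list was 4129 FPM in MUNC spliced replicate 1, 1302 and 1213 FPM in its partners and 1151 to 1351 FPM in MUNC genomic. Rrm2, a subunit of ribonucleotide reductase, stood at 144, 35.7 and 29.1 FPM against 21.98, 18.7 and 17.1 FPM, and lost its call without replicate 1 (adjusted p = 0.0573). Cdc20, which activates the anaphase-promoting complex, lost its call without replicate 1 (0.0614) and also without MUNC genomic replicate 2 (0.0624). Top2a, a topoisomerase of dividing cells, stood at 455, 97.3 and 97.3 FPM against 138, 108 and 130 FPM and was not called. Replicate 1 was thus high in both differentiation genes and division genes. Whether these move in the same cells was not tested.

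In the list of CDK inhibitors and p53 targets, which also holds the cyclin Ccnd2, 7 of 30 tested genes were higher and 7 lower. The share called was 46.7% beside 44.2% of all genes. Leaving out MUNC spliced replicate 1 gave 5 higher and 8 lower. Pmaip1, the apoptosis gene Noxa, stood at 0, 0 and 0.0181 FPM in MUNC spliced and 19.1, 16.3 and 15.7 FPM in MUNC genomic. Ccnd2, a G1 cyclin, stood at 29.8, 29.0 and 41.9 FPM against 280, 278 and 289 FPM. Cdkn1a, the p21 inhibitor, was not called, at 435, 195 and 181 FPM against 277, 234 and 298 FPM, with replicate 1 the highest of the 6 libraries. The CDK inhibitor and retinoblastoma part of the list had 10 tested genes, Ccnd2 among them. Their median difference from the MUNC genomic mean was 0.56 in replicate 1 and -0.22 and -0.23 in its partners.

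Lipid synthesis genes also followed replicate 1 in part. They were higher in 13 of 28 (46.4% beside 23.4% of all genes) and lower in none, with a median of 0.64. Without that replicate 8 were higher and 1 lower, with a median of 0.21. The number higher was 22 without MUNC spliced replicate 3, and without MUNC genomic replicate 2 or 3, 8 were higher. Msmo1, an enzyme of cholesterol synthesis, stood at 277, 123.2 and 77.1 FPM against 54.4, 46.02 and 37.9 FPM. Scd2, a fatty acid desaturase, stood at 3662, 1492 and 1452 FPM against 1094, 692 and 775 FPM.

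Of 24 glycolysis and hypoxia genes 10 were lower (41.7% beside 20.8% of all genes) and none higher, with a median of -0.38, and 3 of the 10 lie on chromosome 6. Slc16a3, the lactate exporter, stood at 1.20, 1.99 and 1.88 FPM against 44.7, 31.3 and 43.5 FPM, with 1.34, 1.22 and 2.21 FPM in control. Tpi1 and Gapdh, glycolytic enzymes encoded on chromosome 6, fell by 1.13 and 0.66 on the log2 scale (adjusted p = 1.41e-05 and 0.00169). Of 36 oxidative phosphorylation subunits 13 were lower (36.1% beside 20.8% of all genes) and none higher, with a median of -0.22. The median was -0.08 and 6 were lower without MUNC spliced replicate 3, and without MUNC genomic replicate 1 also 6 were lower. Cox5a stood at 45.8, 39.9 and 34.8 FPM against 65.4, 55.6 and 60.04 FPM. Of 40 ribosomal protein genes 2 were called (5% beside 44.2% of all genes), both lower. These counts became 1 higher and none lower without MUNC spliced replicate 3, and without MUNC genomic replicate 1, 2 were higher and none lower.

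Of 18 targets of Atf4, the effector of the integrated stress response, 8 were higher and none lower in DM3, a share called of 44.4% beside 44.2% of all genes. With replicate 1 or 3 of MUNC spliced left out, 1 was lower. The median difference from the MUNC genomic mean was 0.60, 0.10 and 0.86 in MUNC spliced replicates 1, 2 and 3. In GM 1 target was higher and 11 were lower, where 19.9% of all genes were called higher and 16% lower. The interaction with medium was called for 12 of the 18, beside 10.5% of all genes. Trib3, a pseudokinase induced by Atf4, stood at 72.7, 51.7 and 125 FPM against 20.0, 15.4 and 23.3 FPM. Ddit3, the factor CHOP, stood at 117, 194 and 290 FPM against 64.5, 39.8 and 71.4 FPM, with 141, 174 and 161 FPM in control. Of 18 Nrf2 targets 3 were higher and 4 lower, a share called of 38.9% beside 44.2% of all genes.

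Differences also followed chromosome. The median log2 difference of the tested genes was 0.32 on chromosome 16 (435 genes), 0.31 on chromosome 4 (884 genes), 0.26 on chromosome 12 and 0.25 on chromosomes 2 and 5. It was -0.37 on chromosome 6 (674 genes), -0.24 on chromosome 15 and -0.22 on chromosome 3. On chromosome 6, 48.7% of the genes were called lower and 9.20% higher, against 20.8% and 23.4% over all genes. On chromosome 16, 44.1% were called higher and 7.59% lower. The pattern was nearly the same in the 6 GM libraries, with medians of -0.39 on chromosome 6, 0.28 on chromosome 16 and 0.30 on chromosome 4. Over 20 chromosomes the medians in DM3 and GM correlated at Pearson r of 0.99 (Spearman rho 0.95), given as a description since each line is the same in both media.

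**Figure D4:**
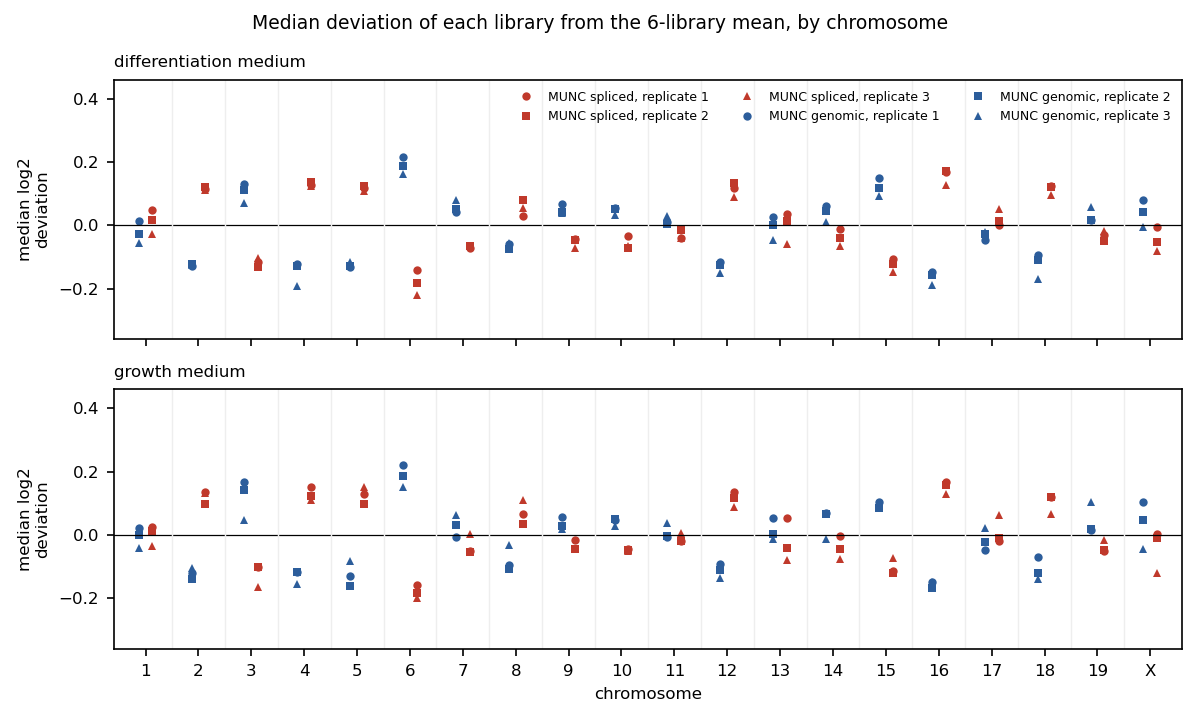
Median over the genes of each chromosome of a library's log2(FPM + 1) minus the mean of the 6 libraries, in differentiation medium (top) and growth medium (bottom). Red marks MUNC spliced, blue MUNC genomic and symbols the replicates. In DM3 the groups do not overlap for 17 of 20 chromosomes, and chromosomes 6 and 16 lie farthest apart.

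Single libraries did not set these medians. On chromosome 6 the MUNC spliced libraries deviated from the mean of the 6 by -0.14, -0.18 and -0.22 and the MUNC genomic libraries by 0.22, 0.19 and 0.16. On chromosome 16 the deviations were 0.17, 0.17 and 0.13 against -0.15, -0.16 and -0.19. The libraries of the groups did not overlap for 17 of 20 chromosomes in DM3 and for 13 of 20 in GM. Among genes averaging at least 20 FPM over the 6 libraries the median was -0.46 on chromosome 6 and 0.33 on chromosome 16. Against control, which both contrasts share, the median on chromosome 6 was -0.16 for MUNC spliced and 0.19 for MUNC genomic. On chromosome 16 these were 0.35 and 0.03, and on chromosome 2 they were -0.01 and -0.27.

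The shift ran along whole chromosomes in some cases and along segments in others. In overlapping runs of 50 neighbouring tested genes, moved by 10 genes, every run on chromosomes 2, 5, 12, 16 and 18 had a median above 0. No run on chromosomes 3 and 6 did. Chromosome 4 was mixed, with run medians of -0.45 to 0.96. Its highest run, the highest in the genome, was chr4:128883580-132295766 on mm10, from Trim62 to Taf12. There 41 of 50 genes were higher and 2 lower in MUNC spliced, and the run's median was 0.96 in DM3 and 0.78 in GM. Within it Sdc3, a heparan sulphate syndecan, was highest, at 28.5, 33.2 and 27.1 FPM against 4.14, 5.24 and 2.91 FPM. Epb41, a membrane-skeleton protein, was lowest, at 24.3, 19.6 and 23 FPM against 52.2, 53.5 and 49 FPM. The lowest run was chr6:72355447-83775813, from Tmem150a to Tex261, with a median of -0.55 in DM3 and -0.43 in GM. In limma none of its 50 genes was called higher and 33 were lower. Actg2 was its lowest gene, and Sema4f its highest, at 0.759, 0.105 and 0.705 FPM against 0.0396, 0.0151 and 0 FPM and not called. On recovered reads Sema4f was called higher, with a log2 difference of 4.69 in edgeR with TMM (adjusted p = 0.0150) and 4.84 in DESeq2 (adjusted p = 0.000307). The cause of these medians was not tested.

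The same lines were also compared in growth medium, to ask how far their differences depended on medium. In GM 4970 genes were called (35.8%). In both media and in the same direction 3210 were called, which is 52.3% of the DM3 calls and 64.6% of the GM calls, while 97 were called in opposite directions. Over all tested genes the log2 differences in the media correlated at Pearson r of 0.748 (Spearman rho 0.637), a description across genes that are not independent replicates. Brinp3, Mmp16 and Des had nearly the same difference in both media. For Brinp3 it was 6.87 in DM3 and 6.67 in GM, and for Des -4.02 and -4.08.

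The interaction, which tests whether the difference itself changed with medium, was called for 1460 genes (10.5%), 743 higher (5.36%) and 717 lower (5.17%) in DM3 than in GM. The interferon-stimulated genes held 42 higher and 1 lower of 49. Their median difference was 0.46 in GM, where both lines were low. Group means of Oas2 in GM were 0.747 FPM for the spliced form and 0.0188 FPM for the genomic form, and its interaction was 7.23 (SE 0.72, adjusted p = 1.04e-05). With edgeR on recovered reads 18 of the 49 were called higher, with a median interaction of 3.15, and with DESeq2 24 of the 49, with a median of 3.13. Oas2 was not called by edgeR (adjusted p = 0.617). Isg15 kept its interaction of 4.13 in edgeR (3.84, adjusted p = 0.00642). MUNC spliced GM replicate 2 had the highest level of Ifit1 among GM libraries of that line, and without it 42 of the 49 interactions were called higher and none lower.

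**Figure D5:**
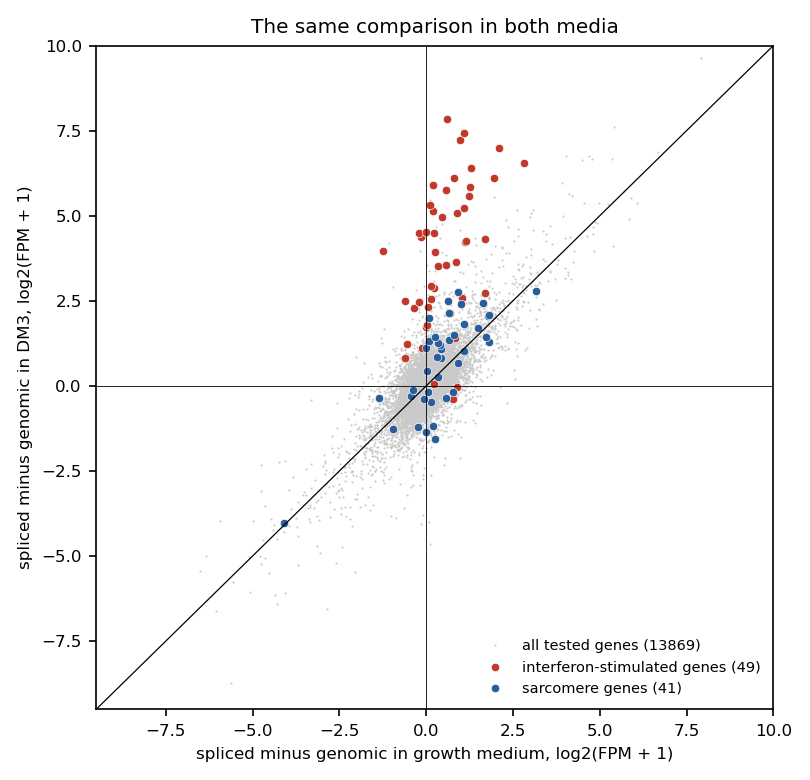
Log2(FPM + 1) difference of MUNC spliced minus MUNC genomic in growth medium (x axis) and in DM3 (y axis) for 13869 tested genes. Most interferon-stimulated genes (red) lie above the line of equal difference, and sarcomere genes (blue) lie on both sides of it. The interferon-stimulated genes have a median of 0.46 in growth medium and 3.95 in DM3.

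The 3 lowest interactions among the named genes belonged to genes that were low in GM and high in MUNC genomic DM3. Osr2, a zinc-finger factor of mesenchyme, stood at 42.2, 37.6 and 35.1 FPM in MUNC genomic DM3 and 0.418, 0.505 and 0.741 FPM in MUNC spliced DM3, with group means of 0.548 and 0.635 FPM in GM for MUNC genomic and MUNC spliced (interaction -4.76, SE 0.21, adjusted p = 1.79e-09). Clu, an extracellular chaperone, stood at 43.7, 98.1 and 65.1 FPM against 1.86, 6.78 and 2.12 FPM, and Myh14, a nonmuscle myosin chain, at 17.6, 22.8 and 23.5 FPM against 0.152, 0.418 and 0.416 FPM. In GM all 3 were low in both lines and not called.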

How the data were processed

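RNA-seq was measured in 18 C2C12 libraries, 3 per line and medium, grouped by their titles. The deposited signal is FPM, and per the submitters' processing notes STAR, HTSeq, DESeq2 and mm10 were used, with versions and strand setting not given in the sources used here. Reads of near-identical paralogs could be split. Within a library every FPM value was a whole multiple of 1 step (100% of values, tolerance 0.05 of a read), and the reads recovered this way totalled 38416702 to 68788327 per library. No read in a library allows at most 3 reads, or 0.0757 FPM, for counting error only. Of 35275 gene identifiers 34490 (97.8%) matched GENCODE M21 on GRCm38. Promoters came from RefSeq (GRCm38.p6). The authors' tables of comparisons were not used.

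Genes with at least 0.5 FPM in 3 of 18 libraries were tested on log2(FPM + 1), a scale that understates changes of low genes. limma 3.58.1 (R 4.3.3, trended variance) fitted group means over all 18 libraries with 12 residual degrees of freedom. Every adjusted p in the text is Benjamini-Hochberg adjusted over 13869 genes from this fit, unless the sentence names edgeR, DESeq2, a block or a left-out library, or a fit of the compared libraries only. Those p-values come from that fit, adjusted over the genes it tested. Genes were called at 0.05. In the main fit a p-value sets a difference against the spread among replicate libraries within groups, pooled over all 18 libraries. It does not cover the spread between separately made lines. The interaction is the DM3 difference minus the GM difference.

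Named genes were Myod1, Myog and Myh3, the 8 highest and 8 lowest called genes without overlap averaging at least 5 FPM in the higher group, and up to 4 called members with the largest difference plus the most abundant uncalled member of each list. Some genes the rule names are not reported here. The 3 highest and 3 lowest interactions and the extreme genes of the described chromosome runs were added. Genes and lists were chosen with earlier results of these data known, and further members were named after their values were seen. Alternatives were other pseudocounts, filters, scalings, edgeR 4.0.16 and DESeq2 1.42.0 on recovered reads, a replicate block and leaving out each library. The fits were tested on simulated data.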

Additional observations from a re-analysis of the deposited data

Results flagged for a closer look

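These genes are given because their MUNC spliced minus MUNC genomic difference itself differed between the media, by the interaction test in limma on the log2(FPM + 1) scale. The value is the difference in DM3 minus that in GM, and 59 of the named genes passed at an adjusted p under 0.05. The interaction was called for 10.5% of all tested genes.

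Among interferon-stimulated genes the interaction was 7.23 for Oas2, 6.34 for Ifi44, 6.27 for Iigp1, 5.68 for Oas1a, 5.11 for Ifit3b, 4.90 for Ifit3, 4.16 for Gbp7, 4.13 for Isg15, 3.74 for Ifit1 and 3.66 for Mx1. In this group Ifi27 went the other way, at -1.15. Among sensors and signalling factors it was 4.30 for Irf7, 2.60 for Ifih1 and 2.04 for Tlr3, and -1.96 for Tmem173. Antigen presentation genes had 2.69 for Psmb8, 2.67 for Nlrc5, 2.29 for Tap1 and 2.04 for B2m. Cytokines and Ly6a had 2.69 for Cxcl10, 1.46 for Ccl5, 1.35 for Il6, 0.95 for Csf1 and 2.56 for Ly6a. The interaction of Ccl5 turned to -2.50 with edgeR TMM and -2.60 with DESeq2. Muscle genes and secreted regulators had 2.39 for Mymk, 1.88 for Mybph, 3.28 for Igf1, 2.31 for Igf2 and 2.07 for Bmp4, and Tpm2 had -0.91. On recovered reads the interactions of Mymk, Mybph and Igf2 turned negative, at -4.33, -5.04 and -0.86 with edgeR TMM and -3.81, -4.52 and -0.93 with DESeq2, where that of Mybph was called (adjusted p = 0.0167). For matrix, signalling and other genes higher in MUNC spliced it was 1.71 for Fndc1, 2.08 for Fbln5, 1.89 for Slit2, 2.18 for Slc24a3, 2.27 for Axin2, 1.61 for Rspo3, 0.53 for Fzd8, 1.74 for Tnmd and 2.25 for Krt14. The Atf4 targets had 2.36 for Trib3 and 1.79 for Ddit3.

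Of the genes lower in MUNC spliced DM3, some lay further below MUNC genomic in DM3 than in GM, with interactions of -4.76 for Osr2, -4.11 for Clu, -3.91 for Myh14, -3.71 for Sprr1a, -3.12 for Loxl2, -2.76 for Adamts4, -2.66 for Lmod1, -2.63 for Col18a1, -2.12 for Col4a6, -1.80 for Wnt7b, -1.01 for Cacna1b and -0.79 for Hoxb3. Others had positive interactions, of 1.97 for Igfbp2, 1.67 for Peg10, 1.16 for Lpl, 1.06 for Stmn2, 0.90 for Ccnd2 and 0.62 for Cdh5. That of Cdh5 turned to -1.28 with edgeR TMM and -1.55 with DESeq2, and that of Psmb8 to -0.064 with edgeR TMM. On recovered reads fewer of these named interactions were called, as given with the other settings.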

How the results depend on the processing

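The DM3 calls numbered 5177 to 5569 without 1 library of the 6 and 4852 to 6522 under other pseudocounts, filters, scalings and tools, and no shared call changed direction in any of 17 alternatives. Of the 6135 calls 5872 were shared with edgeR with TMM and 5961 with DESeq2. Quantile normalization turned the majority of calls, to 2809 higher and 3291 lower. An absolute log2 difference of at least 1 left 1830 calls in DM3, 1264 in GM and 686 interactions. Interaction calls were 991 with edgeR TMM, 1713 with DESeq2 and 930 to 1597 without 1 library, with 930 without MUNC genomic DM3 replicate 3 and 953 without MUNC genomic GM replicate 1. GM calls were 4034 to 4607 without 1 library.

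Same-numbered libraries deviated together at r of 0.32, 0.094 and 0.434, so the numbers were not taken as pairs, although each library correlated best with its own number. With a replicate block 7570 genes were called in DM3, 6133 of the 6135 among them, 6518 in GM and 2716 interactions.

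Of 107 named genes called in DM3, 103 kept call and direction in all 17 alternatives. Ccl9, Acta1, Rrm2 and Cdc20 lost the call in at least 1. Uncalled differences changed sign without single MUNC spliced libraries: Myod1 ranged from -0.15 to 0.69, Ckm from -0.87 to 0.032, Top2a from -0.35 to 0.76 and Cdkn1a from -0.51 to 0.12 (0.07 without replicate 2). Some uncalled genes gained a call: Samd9l, Ifi27 and H19 with only the compared libraries (Samd9l also with the block), Tpm2 and Ckm without MUNC spliced replicate 1, Fn1 without MUNC spliced replicate 3 or with the block, and Sema4f with both edgeR fits, DESeq2, a pseudocount of 0.1 or only the compared libraries. Of 59 named interactions 27 kept call and direction with edgeR TMM, 27 with edgeR RLE and 32 with DESeq2. Reversed interactions, in the order edgeR TMM, edgeR RLE and DESeq2, were -4.33, -4.34 and -3.81 for Mymk, -5.04, -5.05 and -4.52 for Mybph, -0.86, -0.88 and -0.93 for Igf2, -2.50, -2.52 and -2.60 for Ccl5 (-0.15 with a pseudocount of 0.1) and -1.28, -1.31 and -1.55 for Cdh5. For Psmb8 edgeR gave -0.064 and -0.075. The cause was not tested. Depth limits values under 0.0757 FPM.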
